A study of Mus musculus with 4 samples.

Results

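The transforming growth factor beta (TGF-beta) pathway was followed through DNA methylation at 10 mouse genes. These were the ligand genes Tgfb1, Tgfb2 and Tgfb3, and Ltbp2, of the latent TGF-beta binding protein family. The others were the receptor genes Tgfbr1, Tgfbr2 and Tgfbr3, the signalling Smad gene Smad3, and the inhibitory Smad genes Smad6 and Smad7. Their promoters, 5′ UTRs, exons, introns and 3′ UTRs were found by Ensembl gene identifier, and CpG islands and island shores (the 2 kb flanking an island) were taken where they overlapped the gene. This gave 72 regions, 44 gene regions, 12 islands and 16 shores, of the 106689 regions of these 7 classes with a level in all 4 libraries. Each gene region is a single level for the gene and class, so all exons of a gene share 1 value. Neighbouring islands and shores overlap in places and then share CpGs, so regions of a gene are not separate measurements.

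The cells were C3H10T1/2, a mouse line with mesenchymal stem cell behaviour. They received siRNA against DNMT1 (siDNMT1), the enzyme that copies DNA methylation onto new DNA strands, or a non-targeting siRNA (NC), for 48 h. They were then left uninduced or kept for 3 days in osteoblast (OB) induction medium with ascorbic acid, β-glycerophosphate and dexamethasone, and these 4 conditions are called NC, siDNMT1, NC OB and siDNMT1 OB. Each condition was 1 bisulfite sequencing library from 1 line, so no condition has a replicate, no test was run, and the loss of DNMT1 itself cannot be read from DNA methylation values. The value of a region is its methylation level, the fraction of CpG cytosines read as methylated, from 0 to 1, with no statement of how CpGs were weighted. Read counts are not part of these values, so the depth behind a level is unknown. The libraries listed 108116 to 109582 regions of these classes, the fewest in siDNMT1 OB.

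TGF-beta ligands are secreted in a latent complex and stored in the extracellular matrix, of which bone is a rich source. Once released, a ligand binds the type II receptor, which phosphorylates the type I receptor, and the active type I receptor phosphorylates Smad3 and its relative Smad2, which enter the nucleus with Smad4. Smad7 and Smad6 feed back on the receptors. In the osteoblast lineage TGF-beta is known to favour the early progenitor stages and to restrain late maturation.

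The starts of these genes differ in CpG content, and the 250 bases before the start of 4 of them are shown because the results turn on islands and shores there. The sequences are from RefSeq on GRCm38.p6, 5′ to 3′ on the strand of the gene, with each CG dinucleotide, the methylated unit, in capitals. A start window was matched for 7 of the 10 genes; Tgfb3, Tgfbr3 and Smad7 are named only. The Tgfb1 window is chr7:25686752-25687001 on the plus strand, the Tgfb2 window chr1:186705990-186706239, the Smad3 window chr9:63757995-63758244 and the Tgfbr2 window chr9:116175364-116175613, the last 3 on the minus strand.
Tgfb1: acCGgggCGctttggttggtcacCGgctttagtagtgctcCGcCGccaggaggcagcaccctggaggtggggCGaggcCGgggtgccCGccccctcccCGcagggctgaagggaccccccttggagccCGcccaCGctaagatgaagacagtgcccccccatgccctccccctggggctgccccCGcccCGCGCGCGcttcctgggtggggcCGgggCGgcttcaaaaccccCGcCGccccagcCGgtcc
Tgfb2: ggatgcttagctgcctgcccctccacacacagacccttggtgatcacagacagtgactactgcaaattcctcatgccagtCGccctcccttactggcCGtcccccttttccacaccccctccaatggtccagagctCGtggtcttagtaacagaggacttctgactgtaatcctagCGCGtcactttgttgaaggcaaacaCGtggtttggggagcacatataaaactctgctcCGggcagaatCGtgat
Smad3: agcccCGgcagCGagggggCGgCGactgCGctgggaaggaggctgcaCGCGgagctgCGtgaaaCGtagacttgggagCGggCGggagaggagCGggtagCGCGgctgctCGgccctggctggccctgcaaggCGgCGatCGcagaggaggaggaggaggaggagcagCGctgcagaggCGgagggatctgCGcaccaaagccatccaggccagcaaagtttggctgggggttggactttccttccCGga
Tgfbr2: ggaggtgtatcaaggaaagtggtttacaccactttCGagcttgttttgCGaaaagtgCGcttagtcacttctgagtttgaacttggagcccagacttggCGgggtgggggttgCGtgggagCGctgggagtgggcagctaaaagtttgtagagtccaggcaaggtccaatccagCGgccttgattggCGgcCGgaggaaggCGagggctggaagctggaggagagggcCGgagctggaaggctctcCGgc
The Tgfb1 window holds 21 CpGs, and 16.3% of the 32851 windows of all genes hold at least as many. The Smad3 window holds 22 (14.8%), the Tgfbr2 window 12 (33.5%) and the Tgfb2 window 8 (43.0%), beside a median of 6 over all windows. The GC box GGGCGG, searched on both strands, occurs 5 times in the Tgfb1 window and 2 times in that of Smad3, is not in those of Tgfb2 and Tgfbr2, and is in 32.7% of all windows. The cAMP response element TGACGTCA (1.55% of all windows), the AP-1 motif TGACTCA (4.46%) and the palindromic Smad motif GTCTAGAC (0.167%) were found in no window of the 7 genes.

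The 5′ UTRs were near 0, and introns and 3′ UTRs were mostly more methylated. The 9 listed 5′ UTRs lay between 0.00974 and 0.0765 in all 4 libraries, while the 10 introns ran from 0.144 to 0.776 and the 5 listed 3′ UTRs from 0.487 to 0.764. Promoters spanned a wider range. In NC the lowest promoter level was 0.0119, at Tgfbr2, and the highest 0.694, at Tgfbr3, with a member median of 0.0794 where the median of all 20152 promoters was 0.191. The exon median of the members in NC was 0.150, beside 0.361 for all genes, and the intron median 0.542, beside 0.424.

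The first question was whether siDNMT1 lowered methylation of the pathway genes. A difference of 0.1 in level was counted as a change. None of the 72 regions changed by that much with siDNMT1 in uninduced cells, where 0.774% of all 106689 regions were lower and 0.682% higher by at least 0.1. In OB cells again none of the 72 did, where the shares over all regions were 1.35% lower and 0.679% higher. Of any size, 37 of 72 (51.4%) were lower with siDNMT1 in uninduced cells and 45 (62.5%) in OB cells, beside 54.6% and 65.7% of all regions, with median differences of -6.58e-04 and -0.00203, beside -0.00115 and -0.00511 over all regions. The 2 siDNMT1 comparisons share no library. In both, 21 of 72 regions were lower (29.2%), beside 38.4% of all regions, while 11 were higher in both and 40 differed in sign.

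The second question was how the OB libraries differed from the uninduced libraries at the same regions. No uninduced culture kept for the same 3 days is described. Induction medium and added time in culture therefore cannot be told apart, here and in every induction difference below. In NC cells 1 region fell by at least 0.1, the upstream shore of Tgfb2, and none rose, where 1.37% of all regions fell and 0.753% rose. In siDNMT1 cells that shore fell and the Tgfbr3 promoter rose, where the shares were 2.41% and 0.866%. Of any size, 52 of 72 regions (72.2%) were lower after induction in NC cells and 55 (76.4%) in siDNMT1 cells, beside 63.4% and 73.4% of all regions, with medians of -0.00666 and -0.00867, beside -0.00363 and -0.00808 over all regions. In both, which again share no library, 40 of 72 (55.6%) were lower, beside 50.6% of all regions. No share here has a test, and the differences below are therefore given gene by gene, the larger of them beside the share of regions of the same class and level range (mean under 0.1, 0.1 to 0.5, or 0.5 and over) that differed at least as far the same way. A siDNMT1 comparison and an induction comparison share libraries and are not separate evidence.

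**Figure D1:**
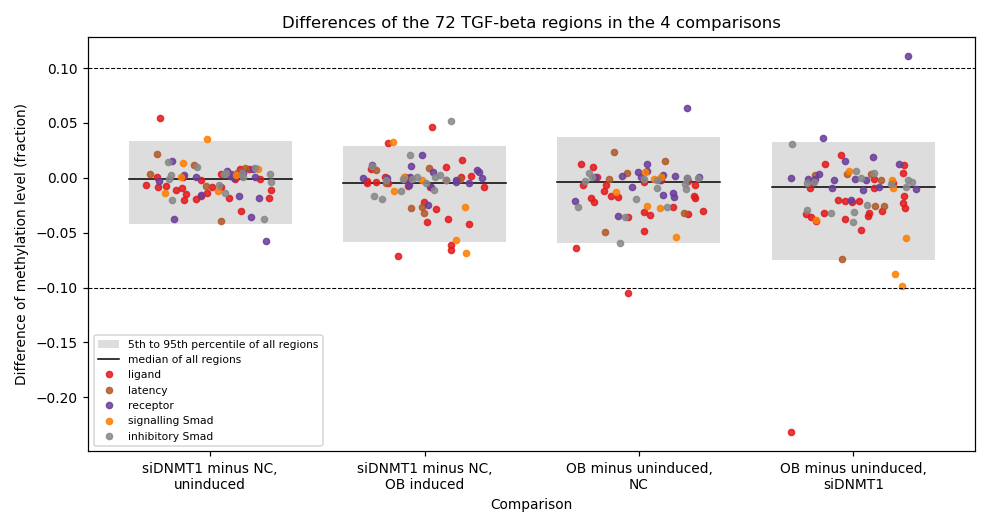
Difference in methylation level (vertical axis) of the 72 regions in the 4 comparisons, over a band from the 5th to the 95th percentile of all 106689 regions. Most points lie within the band, and the upstream shore of Tgfb2 is the lowest point of both induction comparisons, at -0.105 and -0.232.

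Lowly methylated regions of the ligand genes mostly stood lower after induction, as did some regions of the other genes. Tgfb1, Tgfb2 and Tgfb3 hold 25 of the 72 regions, and 14 of these have a mean level under 0.1. That mean takes in all 4 libraries, so a lower level after induction could itself place a region in this range. In NC the Tgfb1 island from -248 to 1288 (0.101), the Tgfb1 shore from 171 to 2170 (0.113) and the Tgfb3 promoter (0.119) lay above 0.1. All 14 were lower in NC OB than in NC, with a median difference of -0.0260 and a range of -0.0635 to -0.0120, where 64.7% of the 40408 regions of that level were lower, with a median of -0.00186. In siDNMT1 cells 12 of the 14 were lower after induction, with a median of -0.0205, where 71.6% were lower with a median of -0.00291. In both, 12 of 14 were lower (85.7%), beside 48.2% of such regions. The other 7 genes have 25 regions under 0.1, of which 14 and 20 were lower and 12 were lower in both (48.0%), with medians of -2.60e-04 and -0.00184. These medians do not compare like levels. In NC the lowest of the 14 ligand regions read 0.0306, while the start islands of Tgfbr1, Tgfbr2, Smad6 and Smad7 read 0.0119, 0.0140, 0.0148 and 0.0152. Regions so near 0 cannot fall as far as the ligand median. Some regions of the other genes read above 0.0306 in NC, and their induction differences ran both ways. In NC cells the Smad6 shore from 1896 to 3895 gave -0.0268, the Tgfbr3 shore -0.0209 and the Smad7 exons -0.00307. The Ltbp2 promoter, 5′ UTR and island gave -3.01e-04, -7.03e-04 and 0.0158, and the Tgfbr3 exons 7.74e-04. In siDNMT1 cells, in that order, they gave 0.00400, -1.74e-04, -0.0316, -0.00184, 0.00362, 0.00354 and -0.00944. Neither the 25 regions nor the 40408 were matched to the ligand regions by level within this range. Without Tgfb1 the counts of ligand regions were 10 and 9 of 10, without Tgfb2 6 and 4 of 6, and without Tgfb3 12 and 11 of 12. When each library was centred on the median of its region class the counts were 12 and 6 of 14 and the siDNMT1 median became 0.00317, whereas centring within class and level range left 14 and 11 of 14. This grouping was looked at after the values were seen, and the 14 regions overlap at the gene starts. Tgfb2 alone holds 8 of the 14, and all were read in the same libraries, so leaving out a gene gives no separate evidence.

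**Figure D2:**
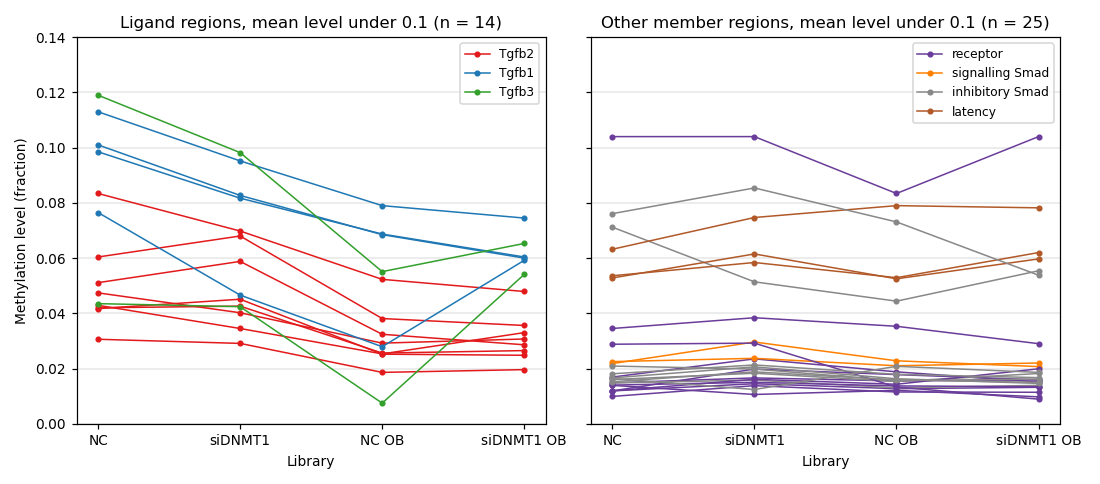
Methylation level (vertical axis, fraction) over the 4 libraries of the member regions with a mean under 0.1, with a line joining the points of each region, for the 14 ligand regions and the 25 regions of the other genes. The 14 ligand lines all stand lower in NC OB than in NC, while 14 of the 25 other lines do.

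Tgfb1 (ENSMUSG00000002603, chromosome 7, 25687002 to 25705077, plus strand, GRCm38) encodes the most widely made TGF-beta ligand. Its start lies in an island from -248 to 1288 bases of the start, with 122 CpGs, which takes in nearly all of the window printed above. The level of that island was 0.101 in NC, 0.0827 in siDNMT1, 0.0685 in NC OB and 0.0600 in siDNMT1 OB. It was thus lower with siDNMT1 in uninduced and in OB cells, and lower after induction with either siRNA. With siDNMT1 it differed by -0.0186 and -0.00849, and 1.30% and 6.94% of the islands of its level range were lower by as much. With induction it differed by -0.0329 in NC cells (1.02% as far) and by -0.0227 in siDNMT1 cells (3.49%). These shares are over islands with a mean under 0.1, and those near 0 cannot fall as far. Among islands with a mean of 0.1 to 0.5, the median induction differences were -0.0256 in NC cells and -0.0328 in siDNMT1 cells. The promoter entry gave 0.0985, 0.0817, 0.0687 and 0.0604 in the same order of libraries, and it shares CpGs with the island.

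The 5′ UTR of Tgfb1 went another way in the last library. It read 0.0765 in NC, 0.0466 in siDNMT1, 0.0279 in NC OB and 0.0592 in siDNMT1 OB. The siDNMT1 difference was -0.0299 in uninduced cells and 0.0313 in OB cells. The gap was 0.0612, and 1.06% of 5′ UTRs with a mean under 0.1 had one as large in that direction. Those near 0 have less room for such a gap, and the median of all 5′ UTRs in NC was 0.0286. Farther in, the methylated island 2172 to 2549 bases from the start read 0.280, 0.271, 0.292 and 0.231, lowest in the siDNMT1 OB library. The 3′ UTR read 0.621, 0.613, 0.631 and 0.565, again lowest in siDNMT1 OB, with a siDNMT1 difference of -0.0656 in OB cells (7.41% as far). The median of all 3′ UTRs was lowest in that library too, at 0.650, beside 0.667 to 0.675 in the others. The median of all islands was also lowest there, at 0.0277. Across Tgfb1, 9 of 10 regions were lower with siDNMT1 in each comparison and 8 in both, where 54.6%, 65.7% and 38.4% of all regions were, and its regions overlap in part.

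Tgfb2 (ENSMUSG00000039239, chromosome 1, 186622792 to 186705989, minus strand), whose ligand depends on the co-receptor betaglycan for high-affinity binding, held the largest fall of the set in both induction comparisons. The shore from -1728 to 272 bases of its start, with 33 CpGs, includes the whole Tgfb2 window printed above and its 8 CpGs. A second shore, from -537 to 1463 with 109 CpGs, includes that window too and read 0.0511, 0.0588, 0.0324 and 0.0286, so the level of the printed CpGs themselves is not known. For the shore from -1728 to 272, the level was 0.426 in NC, 0.480 in siDNMT1, 0.320 in NC OB and 0.249 in siDNMT1 OB, so that both OB libraries lay below both uninduced libraries. With induction it fell by 0.105 in NC cells and by 0.232 in siDNMT1 cells, and 3.48% and 0.910% of shores with a mean of 0.1 to 0.5 fell at least as far. The siDNMT1 difference was 0.0546 in uninduced cells (4.93% as far) and -0.0716 in OB cells (6.05%), opposite in sign. The difference between these was -0.126, and 3.03% of such shores had one as low. It was not tested.

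The rest of the Tgfb2 start was nearly free of methylation and moved less. The island from 273 to 849, with 66 CpGs, read 0.0306 in NC, 0.0291 in siDNMT1, 0.0186 in NC OB and 0.0196 in siDNMT1 OB, and that from 1464 to 1708 read 0.0429, 0.0345, 0.0253 and 0.0330. The 5′ UTR read 0.0417, 0.0451, 0.0252 and 0.0248. The OB libraries again stood below the uninduced libraries at each of these 3 regions, by at most 0.0203 for the same siRNA. At the island from 1464 to 1708 the difference in siDNMT1 cells was only -0.00149, which 61.2% of such islands reached. The promoter entry was 0.0604, 0.0680, 0.0381 and 0.0356. That value is far from the 0.426 of the shore that covers much of the same 2 kb, and it is outside the bounds of 0.168 to 0.668 that an equal-weight mean over the CpGs before the annotated start would allow, so the promoter entry and the shore should not be read as 1 stretch. The introns, at 0.543, 0.533, 0.537 and 0.554, stayed within 0.0210 of each other.

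Tgfb3 (ENSMUSG00000021253, chromosome 12, 86056745 to 86079041, minus strand), the third ligand, had a promoter level of 0.119 in NC, 0.0982 in siDNMT1, 0.0551 in NC OB and 0.0653 in siDNMT1 OB. Both OB libraries lay below both uninduced libraries. The induction difference was -0.0635 in NC cells, and 0.438% of promoters with a mean under 0.1 were lower by as much. In siDNMT1 cells it was -0.0330 (2.73%). The NC level of 0.119 lies above that range, and a promoter near 0 cannot fall as far. Among promoters with a mean of 0.1 to 0.5, the 5th percentile of the NC induction difference was -0.0800. An island from -647 to -329 bases of the start, outside the gene and so not among the 72 regions, read 0.0601, 0.0511, 0.0300 and 0.0308, with the same order of induced and uninduced libraries. The shore beyond that island, from -2648 to -648, also outside the gene, read 0.217, 0.212, 0.147 and 0.157. Its induction differences were -0.0698 in NC cells (9.71% as far) and -0.0541 in siDNMT1 cells (22.9%). The shore across the start, from -327 to 1672, read 0.0435, 0.0424, 0.00746 and 0.0541 and so did not follow these regions in siDNMT1 OB. It was higher there than in siDNMT1 by 0.0117 (9.65% as far). The siDNMT1 difference in OB cells was 0.0466, and 1.90% of such shores were higher by as much. That difference rests largely on the NC OB level of 0.00746, the lowest of the member shores in that library. The body was highly methylated in every library, with exon levels of 0.817, 0.810, 0.811 and 0.783.

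**Figure D3:**
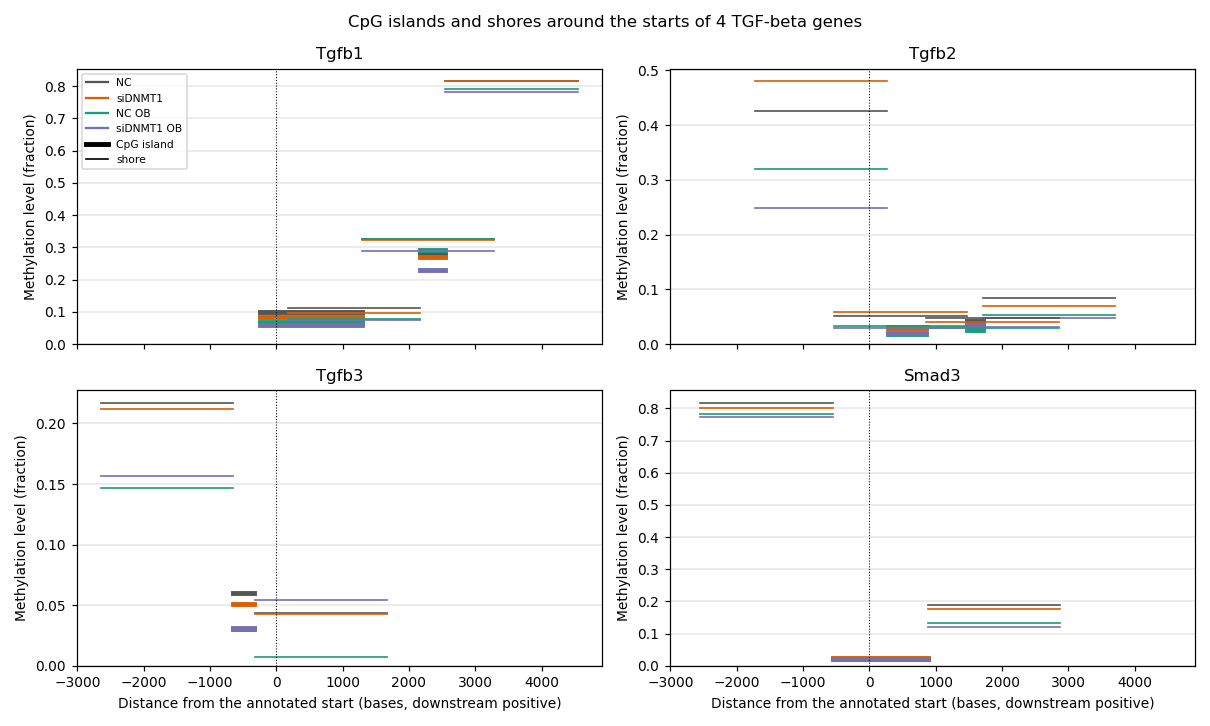
Islands and shores near the starts of Tgfb1, Tgfb2, Tgfb3 and Smad3, by distance from the start in bases (horizontal axis) and methylation level (vertical axis, fraction), with 1 line per library, thick for islands and thin for shores, and with upstream regions outside the gene included. The upstream shore of Tgfb2 separates the libraries, from 0.480 in siDNMT1 to 0.249 in siDNMT1 OB, while the island over the Smad3 start reads 0.0210 to 0.0237 in all 4.

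Ltbp2 (ENSMUSG00000002020, chromosome 12, 84783212 to 84876532, minus strand) encodes a microfibril protein of the latent TGF-beta binding family. Its start did not share the pattern of the ligands. The promoter read 0.0528 in NC, 0.0615 in siDNMT1, 0.0525 in NC OB and 0.0597 in siDNMT1 OB, the 5′ UTR 0.0536, 0.0584, 0.0529 and 0.0620, and the start island, from -138 to 930, read 0.0632, 0.0747, 0.0790 and 0.0782. At the promoter both siDNMT1 libraries stood above both NC libraries, by at most 0.00899. The island difference after induction in NC cells was 0.0158, and 1.23% of such islands were higher by as much. The shore behind it, from 932 to 2931, read 0.105, 0.127, 0.129 and 0.102, higher with siDNMT1 in uninduced cells by 0.0219 and lower in OB cells. In the gene body the introns read 0.541, 0.534, 0.492 and 0.460, lower in both OB libraries, by -0.0489 with NC (4.69% as far) and -0.0736 with siDNMT1 (4.32%). The exons read 0.377, 0.338, 0.345 and 0.340, highest in NC.

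The receptor genes had start islands with almost no methylation. Tgfbr2 (ENSMUSG00000032440, chromosome 9, 116084293 to 116175360, minus strand), for the type II receptor that binds ligand first, had a promoter level of 0.0119 in NC, 0.0161 in siDNMT1, 0.0143 in NC OB and 0.0199 in siDNMT1 OB, and 3.56% of all promoters lay lower in NC. Its start island read 0.0134 to 0.0150 and its 5′ UTR 0.0139, 0.0106, 0.0121 and 0.00974. Its exons read 0.165 in NC and 0.130 to 0.142 in the other libraries, and its 3′ UTR 0.505, 0.487, 0.518 and 0.523, higher after induction in siDNMT1 cells by 0.0362 (5.14% as far).

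Tgfbr1 (ENSMUSG00000007613, chromosome 4, 47353222 to 47414931, plus strand), for the type I receptor kinase, had a start island at 0.0119 to 0.0145 and a 5′ UTR at 0.0169, 0.0235, 0.0188 and 0.0151. The promoter read 0.209, 0.225, 0.214 and 0.214, a spread of 0.0157, which 94.4% of promoters of that level reached or passed. Its introns were the most methylated of the 10 genes in NC, at 0.776, and read 0.718 in siDNMT1, 0.762 in NC OB and 0.737 in siDNMT1 OB. Both siDNMT1 libraries thus stood below both NC libraries, and the difference of -0.0573 in uninduced cells, reached by 2.63% of such introns, was the lowest siDNMT1 difference there of the 72 regions. In OB cells the difference was -0.0249, which 41.8% of such introns reached. Of introns at that level, 68.9% in uninduced and 85.1% in OB cells were lower with siDNMT1.

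Tgfbr3 (ENSMUSG00000029287, chromosome 5, 107106570 to 107289629, minus strand) encodes betaglycan, the co-receptor that presents ligand to the type II receptor. Its promoter was methylated where its start was not. It read 0.694 in NC, 0.657 in siDNMT1, 0.758 in NC OB and 0.769 in siDNMT1 OB, so both OB libraries lay above both uninduced libraries. The difference was 0.0638 in NC cells (2.82% of such promoters as far) and 0.111 in siDNMT1 cells (1.27%), the largest rise of the set in each. Its start island, from -34 to 806, read 0.0148 to 0.0166, the 5′ UTR 0.0119, 0.0198, 0.0178 and 0.0159, and the introns 0.480 to 0.497. Across the 18 regions of the 3 receptor genes, 8 were lower and 10 higher after induction in NC cells, and 12 and 6 in siDNMT1 cells, where 63.4% and 73.4% of all regions were lower.

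Smad3 (ENSMUSG00000032402, chromosome 9, 63646767 to 63757994, minus strand) carries the signal into the nucleus. The island over its start, from -556 to 879 with 134 CpGs, covers the Smad3 window printed above and read 0.0225 in NC, 0.0237 in siDNMT1, 0.0210 in NC OB and 0.0220 in siDNMT1 OB. The 5′ UTR read 0.0218, 0.0296, 0.0228 and 0.0207. The promoter entry, in contrast, was 0.509, 0.511, 0.481 and 0.413, above the bounds of 0.301 to 0.420 for an equal-weight mean in NC over the 2 kb before the annotated start, so the CpGs behind it are not fully known. The siDNMT1 OB library stood lowest there, as it did for the median of all promoters, at 0.164 beside 0.174 to 0.191. The siDNMT1 difference was 0.00262 in uninduced cells and -0.0682 in OB cells (5.04% as far), and induction in siDNMT1 cells gave -0.0987 (4.73%). The upstream shore from -2557 to -557, outside the gene and so not among the 72 regions, did not move as far. It read 0.817, 0.800, 0.783 and 0.772, with a siDNMT1 difference of -0.0105 in OB cells (69.1% as far) and an induction difference of -0.0283 in siDNMT1 cells (35.2%). The exons ran the same way as the promoter entry, at 0.524, 0.560, 0.530 and 0.473, with siDNMT1 differences of 0.0357 (4.98%) and -0.0569 (8.49%) and an induction difference of -0.0874 in siDNMT1 cells (3.71%). The 3′ UTR did not, at 0.504, 0.518, 0.492 and 0.524, with a siDNMT1 difference of 0.0327 in OB cells (4.64%). Downstream of the island, the shore from 881 to 2880 read 0.189, 0.177, 0.134 and 0.122, lower in both OB libraries.

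The inhibitory Smads had nearly unmethylated starts in all libraries. Smad6 (ENSMUSG00000036867, chromosome 9, 63953076 to 64022059, minus strand), best known for restraining bone morphogenetic protein receptors, read 0.0160, 0.0183, 0.0153 and 0.0182 at the promoter, 0.0209, 0.0198, 0.0156 and 0.0162 in the 5′ UTR, and 0.0130 to 0.0158 over its start island of 282 CpGs. A second island near its 3′ end, from 68018 to 68477, was methylated at 0.888, 0.893, 0.878 and 0.862, and 98.1% of all islands lay lower in NC. The shore of that island, from 66017 to 68017 with 21 CpGs, read 0.657, 0.619, 0.598 and 0.650. It was lower in siDNMT1 and in NC OB than in NC, by -0.0376 (9.32% as far) and -0.0590 (5.57%), and higher in siDNMT1 OB than in NC OB by 0.0522 (2.41%) and than in siDNMT1 by 0.0308 (5.65%). After induction in NC cells all 9 Smad6 regions were lower, with a median of -0.0194, and 7 of 9 in siDNMT1 cells, with a median of -0.00368, where 63.4% and 73.4% of all regions were lower.

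Smad7 (ENSMUSG00000025880, chromosome 18), the main inhibitor of the TGF-beta receptors, read 0.0181 in NC, 0.0213 in siDNMT1, 0.0179 in NC OB and 0.0167 in siDNMT1 OB at the promoter and 0.0166, 0.0206, 0.0163 and 0.0146 in the 5′ UTR. Its start island of 276 CpGs read 0.0152 to 0.0188. Its introns, at 0.159, 0.173, 0.149 and 0.144, were the least methylated of the 10 genes. With siDNMT1, 5 of its 6 regions were higher in uninduced cells and all 6 lower in OB cells, with the exons lowest at a difference of -0.0192 (4.37% as far). Of all regions, 54.6% and 65.7% were lower in these comparisons. The upstream shore from -3040 to -1041, outside the gene and so not among these 6, went the other way. It read 0.610 in NC, 0.556 in siDNMT1, 0.544 in NC OB and 0.568 in siDNMT1 OB. Its siDNMT1 differences were -0.0542 in uninduced cells (4.15% as far) and 0.0243 in OB cells (5.96%). With induction it differed by -0.0659 in NC cells (4.35%) and by 0.0126 in siDNMT1 cells (12.5%).

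By class over the 10 genes, introns were lower after induction in NC cells in 10 of 10, beside 60.3% of all introns, and in 6 of 10 in siDNMT1 cells, beside 71.9%. With siDNMT1 they were lower in 9 of 10 in uninduced and 8 of 10 in OB cells, beside 61.9% and 74.4%. Promoters were lower with siDNMT1 in 3 of 10 and 4 of 10, beside 53.2% and 64.0% of all promoters. These counts describe 10 genes in single libraries and were not tested.

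A wider list of 48 other TGF-beta pathway genes gave 171 gene regions from 45 genes. They were chosen for their roles as latency and activation proteins, further receptors, regulators and targets. With siDNMT1 in uninduced cells 3 regions fell and 1 rose by at least 0.1 (2.34%), beside 1.54% of all 76155 gene regions either way. In OB cells 1 fell and 1 rose (1.17%), beside 2.16%. Induction gave 4 falls and 1 rise in NC cells (2.92%), beside 2.14%, and 8 falls and 6 rises over 12 genes in siDNMT1 cells (8.19%), beside 3.39%. The last share was above that of all gene regions, and the gap was not tested.

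The 3′ UTR of Emilin1, a matrix protein that restrains processing of the TGF-beta1 precursor, read 0.745 in NC, 0.648 in siDNMT1, 0.667 in NC OB and 0.778 in siDNMT1 OB and rose by 0.111 with siDNMT1 in OB cells. In uninduced cells the 3′ UTR of Ltbp3, a latency protein, was listed at 0.533 in NC, 0 in siDNMT1, 0.588 in NC OB and 0.636 in siDNMT1 OB, so a single library made its difference of -0.533 and its induction difference of 0.636. The integrin gene Itgb6, which activates latent TGF-beta, changed at its 5′ UTR by -0.148 and at its exons by 0.136, and the exons of the activin receptor gene Acvr1b by -0.125.

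After induction in NC cells, the introns of the activin receptor gene Acvr2a read 0.0921 in NC, 0.112 in siDNMT1, 0.414 in NC OB and 0.460 in siDNMT1 OB. They rose by 0.322 and 0.348, and 0.0798% and 0.114% of such introns rose as far. The exons of Smurf1, a ubiquitin ligase that acts on Smads and receptors, read 0.422, 0.455, 0.291 and 0.256 with differences of -0.132 and -0.199. The 5′ UTR of the type I receptor gene Acvrl1 differed by -0.166, the exons of Skil, a corepressor of Smads, by -0.117, and the Itgb6 promoter by -0.116 in NC cells. In siDNMT1 cells the 5′ UTR and promoter of Eng, for the co-receptor endoglin, differed by -0.188 and -0.160. In each of these regions, from Acvr2a to Eng, both OB libraries stood on 1 side of both uninduced libraries. They were named for a large induction difference, so such a split is partly fixed by the choice.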

How the data were processed

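Bisulfite sequencing was read in 4 libraries of C3H10T1/2 cells, 1 per condition. The study names the assay reduced representation bisulfite sequencing, whereas its protocol describes sonicated DNA. The authors called bases with CASAVA, filtered the reads by Trimmomatic (version 0.36) and mapped them to mm10 using Bismark (version 0.16.3). They deposited 1 table per library, in which a region's value is its fraction of CpG methylation, with no read counts. The coverage minimum and the weighting of CpGs are not given in the sources used here.

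The 10 genes, the pathway list and the comparisons were chosen with earlier results of these data known. The genes were matched by Ensembl identifier to GENCODE vM21. Of the 14354 islands on the main chromosomes, 14354 start and end with CG on GRCm38, which fixes their coordinates. Distances are counted from 0 at the first base of the gene on its strand. The promoter is described as the 2 kb before the start. Of 10 promoter entries, 8 lie within the bounds that island and shore levels allow for an equal-weight mean (tolerance 0.01). The other 2 do not (Tgfb2 and Smad3). Some bounds are too wide for this to say much, such as 0 to 0.851 at Tgfb1, 0 to 0.873 at Tgfbr2 and 0 to 0.910 at Tgfbr3. Whether weighting by coverage or another start explains the 2 entries outside was not tested.

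Differences were taken over regions listed in all 4 libraries, repeats left out, and counted from 0.1. All members were named, with their promoter, 5′ UTR and start island, every region changed by 0.1, and the 3 largest differences each way per comparison; of the pathway list, at most 5 regions per comparison were named, ranked by size, and 1 of these is not reported here. Functions were tested on simulated data. Alternatives changed the threshold, centring, scale and set of regions. Single CpGs, differentially methylated regions and RNA were not analysed here. Python 3.11.15, pandas 2.3.3, numpy 2.4.6, pysam 0.24.0, samtools 1.23.1 and matplotlib 3.10.9 were used.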

Additional observations from a re-analysis of the deposited data

Results flagged for a closer look

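At 1 member region and 1 region of the pathway list, a difference of at least 0.05 in one pair of libraries met one of at least 0.05 the opposite way in the other pair. At the Tgfb2 shore from -1728 to 272 the siDNMT1 difference was 0.0546 in uninduced cells and -0.0716 in OB cells, a gap of -0.126. At the Emilin1 3′ UTR the siDNMT1 difference was -0.0972 in uninduced cells and 0.111 in OB cells, and the induction difference -0.0784 in NC cells and 0.130 in siDNMT1 cells, a gap of 0.208 in each case, since both are made from the same 4 levels. These gaps were not tested.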

How the results depend on the processing

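No replicate block was fitted, since each condition has 1 library and the labels give no replicate numbers; the 2 pairs of libraries behind each kind of difference are set side by side in the report. Among the alternatives for the counts and medians over the 72 regions, 36 left the value as it was or near it, 15 moved it and 5 reversed its sign. With a change counted from 0.05, the counts of changed regions in the order siDNMT1 uninduced, siDNMT1 OB, induction in NC and induction in siDNMT1 were 2, 6, 5 and 6, where the counts from 0.1 were 0, 0, 1 and 2; of all regions, 3.56%, 7.06%, 7.24% and 11.8% were lower and 2.60%, 2.36%, 3.05% and 2.83% higher by 0.05. From 0.2 the induction counts were 0 and 1, and with gene regions alone they were 0 and 1. On the log2 ratio of methylated to unmethylated fraction, counted from 0.5, the counts were 1, 2, 18 and 12; of the 18 all were lower and 15 belonged to the ligands, and of the 12, 11 were lower and 6 of these belonged to the ligands, where 7.29% and 10.7% of all regions were lower by as much. Centring each library on the median of its region class took the induction count in NC to 0, the number of regions lower with siDNMT1 in both comparisons from 21 to 12 (and the share of all regions from 38.4% to 25.2%), and the 4 medians to 2.64e-04, 0.00307, 8.04e-04 and 0.00378, all of opposite sign. The uninduced siDNMT1 median was 1.90e-04 when every gene counted once, and the induction median in siDNMT1 cells was -0.0261 over regions with a mean of at least 0.1. For the low ligand regions, settings chosen after seeing the data kept the sign except class centring in siDNMT1 cells (0.00317). Depth is unknown, and a level near 0 in few CpGs may rest on few reads.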
